A study of Mus musculus with 6 samples.

Results

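The interferon response genes examined here are a fixed list of 42 genes that interferons are known to induce. They were read by name from 6 mouse RNA-seq libraries, and 41 of the 42 names occur among the 23284 genes of the count files. Ifi27 does not occur under that name and has no value here. The libraries come from preSC, a mouse cell line labelled as a precursor of small cell lung cancer (SCLC), and the lentiviral backbone was pLKO.1 in all of them. Control replicates 1 and 2 carried this backbone empty (shEmpty), and control replicate 3 carried a hairpin labelled non-silencing (shNS). The shCrebbp group held 3 libraries, each with a different short hairpin against Crebbp (hairpins 1, 2 and 5), the gene of the acetyltransferase CBP. No label says that libraries came from separate cultures, so a p-value refers to the spread between libraries alone, which may be technical and in the shCrebbp group includes differences between hairpins. Of the controls, shNS alone carried a hairpin.

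Interferons are secreted proteins by which cells warn each other of infection. Type I and type III interferons act through receptors, JAK kinases and the factor ISGF3, which contains STAT2 and IRF9 and binds the interferon-stimulated response element (ISRE). Interferon gamma acts mainly through the gamma-activated site (GAS). CBP and its paralogue p300 are known coactivators of STAT and IRF factors. Many of the induced genes are also transcribed at a low level without added interferon, and no interferon treatment is named in the labels.

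To show what the promoters of these genes share, ISRE and GAS letters were looked for in RefSeq promoter windows (build GRCm38.p6, 250 bases before to 50 after a transcript start). A window was found for 34 of the 41 genes, and none for Dhx58, Usp18, Parp9, Parp14, Mx1, Mx2 and Rtp4. The ISRE core was searched as GAAANNGAAA on both strands, and it lay in a window of 16 of the 34 members (47.1%) against 3.99% of all 27025 genes with a window. The GAS core TTCNNNGAA, also on both strands, lay in 8 of 34 members (23.5%) against 9.55% of all genes. The matches are descriptions of letters, and no binding was measured. The 5 sequences shown first belong to genes whose levels with hairpins were all, or for Isg15 nearly all, under the controls, and the last 3 to genes whose levels overlapped. They run 5′ to 3′ on the gene's strand, and capitals mark the ISRE core or its reverse complement, which can overlap the next match.

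Ifitm3, chr7:141010715-141010744, minus strand: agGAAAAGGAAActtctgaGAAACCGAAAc
Bst2, chr8:71537577-71537612, minus strand: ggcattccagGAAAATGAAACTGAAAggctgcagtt
Ifit1, chr19:34640775-34640823, plus strand: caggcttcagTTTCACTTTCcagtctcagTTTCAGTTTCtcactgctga
Irgm1, chr11:48871425-48871460, minus strand: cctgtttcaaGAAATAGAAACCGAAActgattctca
Isg15, chr4:156200865-156200906, minus strand: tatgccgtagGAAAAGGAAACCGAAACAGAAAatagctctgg
Ifitm2, chr7:140955988-140956017, minus strand: ccaccaacagGAAAAGGAAAttgctagaga
Igtp, chr11:58199512-58199541, plus strand: tctaggaactGAAACTGAAAgctgttcggg
Rsad2, chr12:26456553-26456582, minus strand: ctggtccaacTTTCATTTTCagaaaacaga

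The Ifitm3 stretch starts at the RefSeq transcript start and the other 7 lie upstream of theirs. The neighbours Ifitm2 and Ifitm3 carry the same word GAAAAGGAAA. Of the members with a window, the ISRE core was found in 5 of the 9 whose groups were apart with hairpins lower, and in 11 of the other 25. The printed stretches were picked for display, so their numbers of matches do not compare these groups. Gbp3, Ifit3 and Trim21, whose levels overlapped, had 2 matches each in a window. Among genes lower without overlap, Ifih1 had 1 match, and Irf9, Ifi35, Lgals3bp and Ifitm1 had 0.

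The libraries held 13622020 to 19804949 reads in genes, so that 1 CPM (the unit of a read count scaled to library size) stood for 13.6 to 19.6 reads. The targeted gene, Crebbp, was at 66.2, 69.6 and 69.4 CPM in control replicates 1, 2 and 3, versus 46.2, 58.3 and 48.9 CPM with hairpins 1, 2 and 5. Every hairpin library was under every control, but the difference did not pass over all genes (log2 fold change -0.42 ± 0.10 SE, edgeR adjusted p = 0.0999). Crebbp was called lower with DESeq2, with limma-voom using library quality weights and in edgeR without hairpin 2. In these settings 3.08%, 3.05% and 0.601% of all tested genes were called lower. None of 13 neuroendocrine markers was called, and each had at least 1 CPM in some library. Calca, among the most abundant, was at 1803 ± 209 CPM in controls versus 875 ± 267 CPM with hairpins (SD, n = 3 each) and missed the threshold (edgeR adjusted p = 0.0558). These markers summed to 10038, 9818 and 8885 CPM in control replicates 1, 2 and 3, versus 8118, 7630 and 9492 CPM with hairpins 1, 2 and 5. Hairpins were lower without overlap in 5 of the 13 and higher in 2, against 11% and 11.4% of all tested genes. At an unadjusted edgeR p under 0.05, 5 were lower and 1 higher, against 1133 and 1070 of all 13390 tested genes. The part of these differences in the values of the interferon response genes was not tested. Of 12 leukocyte markers 9 were under 1 CPM in every library, and Emr1 and Tyrobp were among those with no read in any. Their summed level was 76.4 to 85.3 CPM in controls versus 68.9 to 84.6 CPM with hairpins, nearly all from Coro1a, with Cd68 next. Of 12 fibroblast and endothelial markers 8 were under 1 CPM in every library. Their sum was 452 to 476 CPM in controls versus 178, 426 and 476 CPM with hairpins 1, 2 and 5, mostly Vwf, with Dcn next. Vwf was at 405, 426 and 437 CPM in controls versus 163, 388 and 411 CPM with hairpins 1, 2 and 5. The low value with hairpin 1 goes along with the lower interferon response genes of that library, and its part in them was not tested.

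All 6 interferon receptor genes passed the filter on low counts, and interferon genes had next to no reads. Of 19 interferon ligand genes in the files, each control library had 1 read in all, hairpins 1 and 2 had 0 and hairpin 5 had 1, where 3 reads stand for 0.153 to 0.220 CPM. In the controls 28 of the 41 members had a mean of at least 5 CPM and 6 of at least 50 CPM. Per kilobase of the longest coding transcript, Ifitm2 had the highest level (92.5 CPM per kb). It was followed by Ifi35 (35.1), Irf1 (29.6), Cmpk2 (28.0), Parp12 (25.0), Trim25 (20.9) and Ifitm3 (20.8 CPM per kb). The other end of the range held Ifitm1, Gbp2, Ifit3, Ifi44 and Sp100, which had at most 8 reads in any library and were left out by the filter. Compared gene by gene in CPM, 37 of the 41 members had a lower mean with hairpins and 4 a higher one.

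The mean level of the members was lower in each hairpin library than in any control, and 3 of them passed the test. The mean log2 CPM over all 41 members was 3.05, 3.04 and 3.09 in control replicates 1, 2 and 3. It was 2.37, 2.80 and 2.75 with hairpins 1, 2 and 5, so the groups did not overlap. The group means were 3.06 ± 0.03 and 2.64 ± 0.24 (SD, n = 3 each), a difference of -0.42 on the log2 scale (-0.29 without hairpin 1 and -0.51 without hairpin 2), while the mean over all tested genes differed by -0.0056. The members' reads summed to 965 to 988 CPM in controls and to 791, 835 and 899 CPM with hairpins 1, 2 and 5. Fewer responding cells and less RNA per cell cannot be told apart in such bulk libraries. Without the 3 genes that passed, a setting added after the data were seen, the difference in mean log2 CPM was -0.32. By role, it was -0.64 for IFITM genes and GTPases, -0.53 for other effectors, -0.43 for the PARP and DTX3L genes and -0.37 for RNA sensors. It was -0.32 for signalling factors, -0.30 for the ISG15 system and -0.18 for RNA-level effectors. In the last role the libraries overlapped, with hairpin 2 at the level of control replicate 3. Some of these means include untested genes with few reads, and a single gene can weigh much in each. Over tested genes only, the median log2 fold change was -0.29 for IFITM genes and GTPases, -0.30 for other effectors and -0.27 for PARP and DTX3L genes. It was -0.40 for RNA sensors, -0.24 for signalling factors, -0.15 for the ISG15 system and -0.16 for RNA-level effectors.

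**Figure D1:**
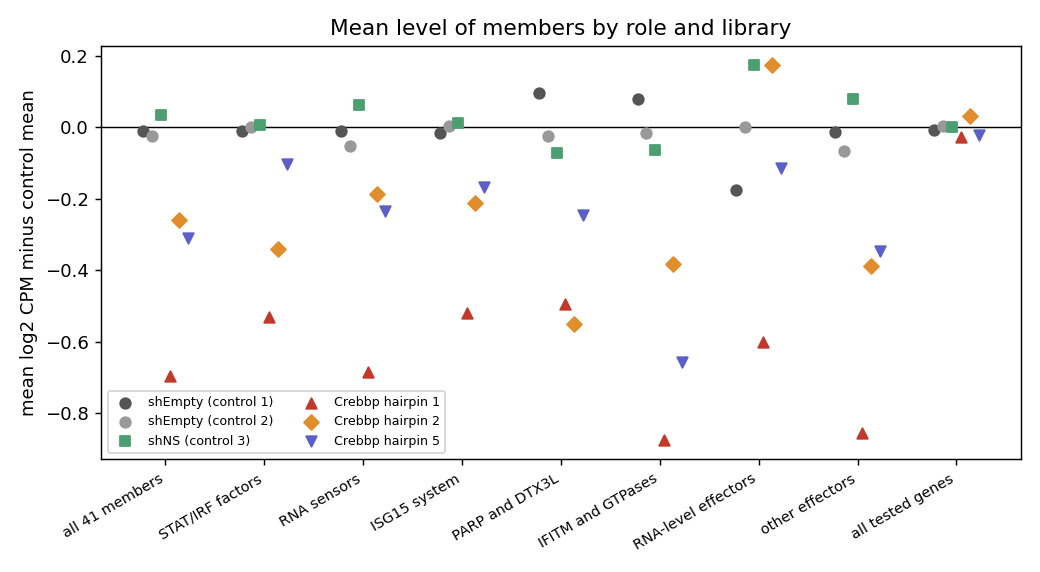
Mean log2 CPM over all 41 members, over members of each role and over all tested genes, as the difference from the mean of the 3 controls (vertical axis, log2 units), with 1 point per library. Hairpin 1 is lowest over all 41 members, and the means over all tested genes stay close to 0.

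Of the 36 members that could be tested, 3 were called lower and 0 higher in edgeR (adjusted p under 0.05 over all 13390 tested genes). That is 8.33% of them called lower, against 0.978% of all tested genes called lower and 0.276% called higher. Of the 3, Mx1 passed the filter on low counts through the controls only. Its direction was thus fixed by the filter, in this count and in those that follow. At an unadjusted edgeR p under 0.05, 12 members were lower and 0 higher, against 1133 and 1070 of all 13390 tested genes. No member was called higher by DESeq2 or limma-voom. Negative fold changes were seen in 32 of the 36 (88.9%), against 46.8% of all tested genes. In 12 of the 36 (33.3%) all 3 hairpin libraries lay below all 3 controls, against 11% of all tested genes, and in 0 all lay above, against 11.4%. Their median log2 fold change was -0.26, and that of all tested genes was 0.01. The list was drawn up with these results known, so the counts describe it and are no independent evidence of its direction.

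**Figure D2:**
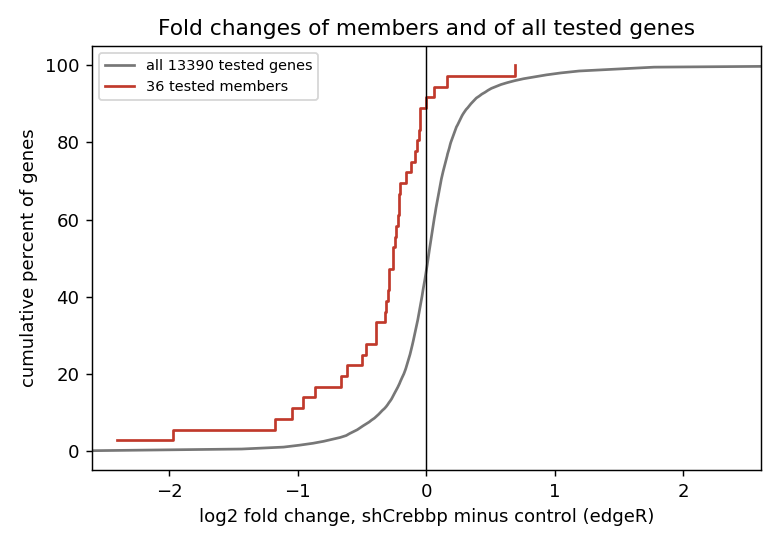
Cumulative percent of genes (vertical axis) against the log2 fold change of shCrebbp minus control (horizontal axis), for the 36 tested members (red steps) and for all 13390 tested genes (grey line). The steps lie left of the line over most of the range, with a median of -0.26 against 0.01.

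Ifitm3, the antiviral membrane protein that hinders virus entry, was the clearest of the called genes. Its level was 16.8, 14.9 and 10.6 CPM in control replicates 1, 2 and 3 versus 3.97, 2.99 and 3.81 CPM with hairpins 1, 2 and 5. The hairpin libraries were close to each other and all far below the lowest control, which was shNS. Ifitm3 fell 3.92-fold (log2 fold change -1.97 ± 0.22, edgeR adjusted p = 0.00990). Its neighbour and paralogue Ifitm2 was at 51.4, 64.4 and 65.9 CPM in controls versus 57.2, 47.4 and 51.2 CPM with hairpins, so its groups overlapped. The log2 fold change of Ifitm2 was -0.22 ± 0.12 and did not pass (adjusted p = 0.423). Ifitm1, the gene between them, had 3, 4 and 2 reads in controls and 0, 1 and 0 with hairpins, at most near the level of 3 reads. Ifitm2 shared 48.5% of its 50-base words with other annotated transcripts and Ifitm3 10%. The counts of both may therefore be uncertain, by an amount that was not tested.

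Mx1, a dynamin-like GTPase that blocks virus replication, was the called gene with the largest fold change and the fewest reads. Its counts were 30, 23 and 23 reads in control replicates 1, 2 and 3 and 3, 6 and 3 reads with hairpins 1, 2 and 5. In normalized units these were 1.53, 1.40 and 1.68 CPM against 0.220, 0.427 and 0.204 CPM. Summed over each group and scaled for depth, the control level was 5.4 times the hairpin level (exact Clopper-Pearson 95% interval 2.92 to 10.9, counting error only). The fitted log2 fold change was -2.40 ± 0.39 (edgeR adjusted p = 0.0307). Mx1 passed the filter on low counts through the controls only, so it had to differ in this direction to be tested. Mx2, its paralogue, was at 1.12, 0.854 and 0.584 CPM in controls versus 0.367, 0.926 and 0.817 CPM with hairpins (adjusted p = 0.807).

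Parp14, a large ADP-ribosyltransferase, fell 2.06-fold. It was at 22.4, 19.3 and 18.6 CPM in control replicates 1, 2 and 3 versus 7.72, 10.8 and 10.8 CPM with hairpins 1, 2 and 5. Each hairpin library was well under each control (log2 fold change -1.04 ± 0.17, edgeR adjusted p = 0.0307). Parp14, Dtx3l and Parp9 follow each other on chromosome 16 in RefSeq. The other members of this gene row did not pass. Parp9, an inactive PARP that works as the partner of the ubiquitin ligase DTX3L, was at 36.5, 35.7 and 34.5 CPM in controls versus 29.2, 24.6 and 33.4 CPM with hairpins. Its log2 fold change was -0.29 ± 0.12 (adjusted p = 0.292), without overlap between the groups but with hairpin 5 just under the lowest control. Dtx3l was at 32.7, 31.5 and 28.8 CPM in controls versus 26.6, 22.2 and 29.7 CPM with hairpins (adjusted p = 0.389). Parp12, on another chromosome, was at 80.8 ± 5.55 CPM in controls versus 74.4 ± 9.65 CPM with hairpins (SD, n = 3 each, adjusted p = 0.666).

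The calls depended on which control and hairpin libraries were kept. Without hairpin 1, which stood apart, Ifitm3, Mx1 and Parp14 were all called, with 1.75% of all tested genes called lower. In that setting 27 of 36 members had negative fold changes, and the share over all genes was not computed. Without control replicate 1 or 2, edgeR called 0 members lower, and 0% of all tested genes were called lower in either case. Without shNS only Ifitm3 was called, with 0.332% of all tested genes called lower. The log2 fold changes of Ifitm3, Mx1 and Parp14 stayed between -2.14 and -1.83, between -2.81 and -2.22 and between -1.13 and -0.90 over all alternatives. Mx1 was also lost without hairpin 5 (adjusted p = 0.0505) and Parp14 without hairpin 2 (adjusted p = 0.0522). DESeq2 over all 6 libraries called 5 members lower, against 3.08% of all tested genes, adding Bst2 and Ifih1. Bst2 also passed in limma-voom when libraries were weighted by quality (adjusted p = 0.0467), and Ifih1 in edgeR without hairpin 5 (adjusted p = 0.0316).

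**Figure D3:**
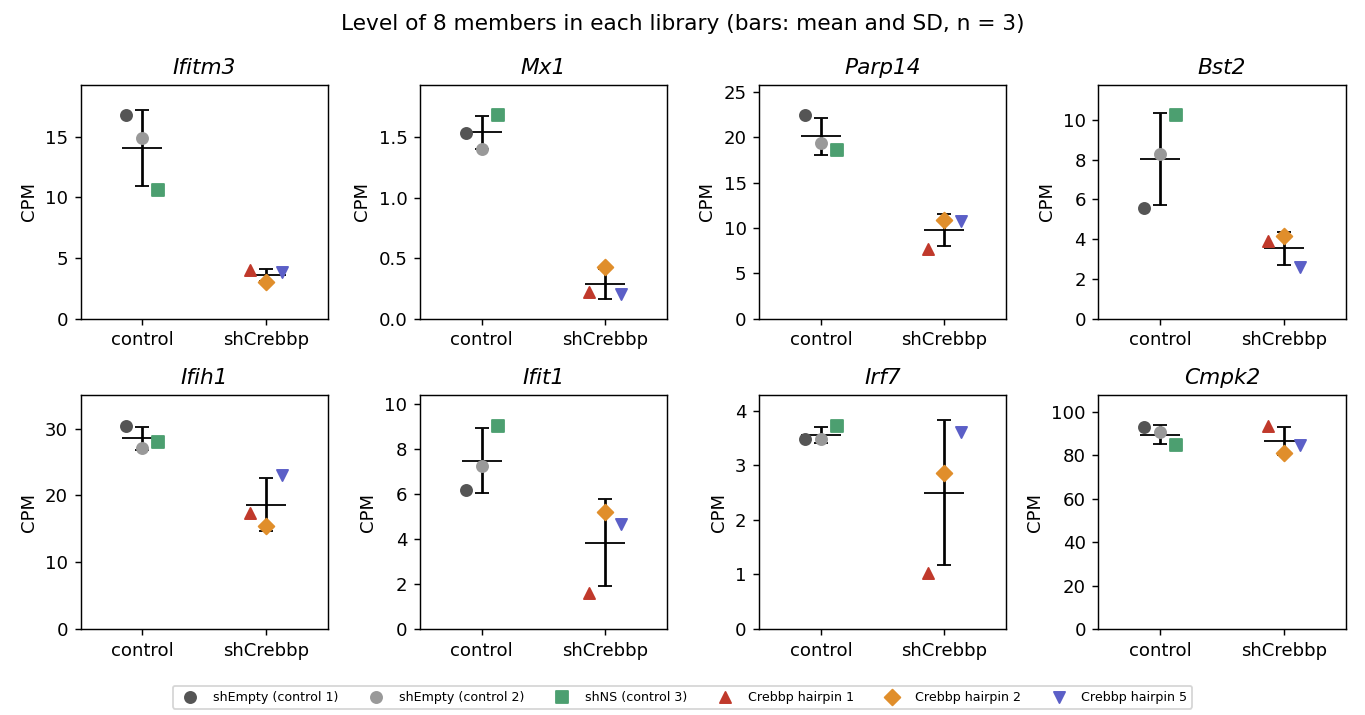
Normalized level (CPM, vertical axes from 0) of 8 members in each library, by group, with 1 point per library and a horizontal mark and error bars for the mean and SD of 3 libraries. Ifitm3, Mx1, Parp14, Bst2, Ifih1 and Ifit1 show no overlap between groups, while Irf7, lowest with hairpin 1, and Cmpk2 overlap.

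None of the 4 signalling factors passed, and all 4 had negative fold changes. STAT2, a part of ISGF3, is encoded by Stat2, which was at 38.1, 39.1 and 40.6 CPM in control replicates 1, 2 and 3 versus 40.1, 29.3 and 32.2 CPM with hairpins 1, 2 and 5. Hairpin 1 lay within the controls and the other hairpins below them (log2 fold change -0.21 ± 0.13, edgeR adjusted p = 0.455). Irf9, the DNA-binding part of ISGF3, was at 22.8, 24.9 and 25.6 CPM in controls versus 20.7, 19.7 and 21.0 CPM with hairpins, a small shift without overlap (-0.26 ± 0.10, adjusted p = 0.271). Irf7, which amplifies type I interferon production, was at 3.47, 3.48 and 3.72 CPM in controls. With hairpins 1, 2 and 5 it was at 1.03, 2.85 and 3.61 CPM, so that hairpin 1 was far lower than the rest and hairpin 5 within the controls (adjusted p = 0.598). Irf1, a factor induced mainly through GAS elements, was at 63.2 ± 6.24 CPM in controls versus 56.7 ± 8.56 CPM with hairpins (SD, n = 3 each, adjusted p = 0.614).

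None of the 5 sensors and editors of double-stranded RNA passed in edgeR. Ifih1, which encodes the long double-stranded RNA sensor MDA5, was at 30.4, 27.2 and 28.0 CPM in control replicates 1, 2 and 3 versus 17.3, 15.5 and 23.1 CPM with hairpins 1, 2 and 5. Its groups did not overlap, but it did not pass in edgeR (log2 fold change -0.62 ± 0.16, adjusted p = 0.106) and did in DESeq2 (adjusted p = 0.0179). Dhx58, the regulator LGP2, was at 6.64, 5.79 and 6.13 CPM in controls versus 1.54, 5.63 and 4.49 CPM with hairpins, with hairpin 1 far lower and hairpin 2 next to the lowest control (adjusted p = 0.456). Ddx58, which encodes RIG-I, was at 9.81, 8.78 and 11 CPM in controls versus 5.59, 7.62 and 9.26 CPM with hairpins (adjusted p = 0.408). The sensor and translation-blocking kinase gene Eif2ak2 (PKR) was at 28.3 ± 3.76 CPM in controls versus 28.3 ± 6.16 CPM with hairpins (adjusted p = 0.999). Adar, whose product edits double-stranded RNA, was at 80.9 ± 1.54 and 84.2 ± 8.24 CPM (SD, n = 3 each, adjusted p = 0.823).

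Of the ISG15 system, a ubiquitin-like modifier and its enzymes, the modifier gene had the largest difference, at a low level. Isg15 had 25, 33 and 32 reads in controls (1.28, 2.01 and 2.34 CPM) and 11, 18 and 14 reads with hairpins (0.808, 1.28 and 0.953 CPM). Control replicate 1 and hairpin 2 were at the same level, and the difference did not pass (log2 fold change -0.87 ± 0.35, edgeR adjusted p = 0.268). Usp18, which removes ISG15 and damps receptor signalling, was at 23.5 ± 2.75 CPM in controls versus 22.4 ± 1.72 CPM with hairpins (adjusted p = 0.842). Herc6, the mouse ISG15 ligase gene, was at 35.5 ± 2.32 and 33.5 ± 5.19 CPM (adjusted p = 0.810). Trim25, a ligase that acts with RIG-I, was at 126, 114 and 110 CPM in controls versus 68.1, 118 and 117 CPM with hairpins 1, 2 and 5, low with hairpin 1 alone (adjusted p = 0.669).

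Of the effectors that act on viral or cellular RNA, none passed, and 4 of the 6 tested had negative fold changes. Ifit1, which binds uncapped or foreign RNA ends, was at 6.18, 7.26 and 9.05 CPM in control replicates 1, 2 and 3 versus 1.62, 5.20 and 4.70 CPM with hairpins 1, 2 and 5. Every hairpin library was lower than every control, and hairpin 1 the lowest (log2 fold change -0.96 ± 0.39, edgeR adjusted p = 0.269). Its family member Ifit2 was at 20.9, 21.4 and 21.3 CPM in controls versus 21.1, 27.1 and 22.9 CPM with hairpins, not lower (0.16 ± 0.12, adjusted p = 0.583). Ifit3 had 2 to 8 reads per library and shared 51.2% of its 50-base words with other transcripts, mainly Ifit3b. The antiviral genes Rsad2 (viperin) and Cmpk2 (a mitochondrial nucleotide kinase) are neighbours on chromosome 12. Rsad2 was at 19.4, 23.2 and 29.6 CPM in controls versus 13.6, 21.3 and 20.01 CPM with hairpins (adjusted p = 0.405), and Cmpk2 at 89.5 ± 4.31 and 86.5 ± 6.43 CPM (adjusted p = 0.842). Oasl2, a 2′-5′-oligoadenylate synthetase-like gene, was at 1.07 ± 0.241 and 0.893 ± 0.352 CPM (adjusted p = 0.807). Samd9l, a translation-restricting antiviral gene, had a positive fold change, from 0.817, 1.16 and 2.04 CPM in controls to 1.54, 3.13 and 1.70 CPM with hairpins (0.69 ± 0.43, adjusted p = 0.482).

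Among the interferon-induced GTPases, Irgm1, a regulator of the defence against intracellular pathogens, was steady in controls at 19.2, 19.1 and 19 CPM. It was at 11.3, 13.2 and 16.7 CPM with hairpins 1, 2 and 5, with no overlap (log2 fold change -0.47 ± 0.16, edgeR adjusted p = 0.188). Igtp, another GTPase of that family, was at 8.31 ± 0.940 CPM in controls versus 8.03 ± 0.587 CPM with hairpins (SD, n = 3 each, adjusted p = 0.929). The guanylate-binding protein gene Gbp3 was at 0.869, 0.732 and 0.584 CPM in controls versus 0.294, 1.42 and 0.408 CPM with hairpins (adjusted p = 0.978), and Gbp2 had at most 2 reads in any library.

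Bst2, which encodes tetherin, a protein that holds budding virus at the cell surface, was at 5.57, 8.29 and 10.2 CPM in control replicates 1, 2 and 3. It was at 3.89, 4.13 and 2.59 CPM with hairpins 1, 2 and 5, below every control. Its log2 fold change of -1.18 ± 0.29 was the largest in size among members that did not pass (edgeR adjusted p = 0.0975), and it passed in DESeq2 (adjusted p = 0.00823). Ifi35, a STAT-induced leucine zipper protein gene, was at 46.0, 48.6 and 48.7 CPM in controls versus 34.2, 38.6 and 42.4 CPM with hairpins (-0.31 ± 0.10, adjusted p = 0.180). Lgals3bp, a secreted galectin-binding glycoprotein gene, was at 18.9, 19.8 and 17.1 CPM in controls versus 14.2, 14.4 and 16.1 CPM with hairpins (-0.32 ± 0.12, adjusted p = 0.251). Both were lower without overlap and neither passed.

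A further set of effectors was low with hairpin 1 and not with each of the others. Xaf1, a pro-apoptotic factor gene, was at 6.74, 8.72 and 8.39 CPM in controls versus 2.5, 8.90 and 8.78 CPM with hairpins 1, 2 and 5 (edgeR adjusted p = 0.839). The cytosolic antibody receptor gene Trim21 was at 11.4, 9.45 and 8.83 CPM in controls versus 5.51, 7.05 and 11.7 CPM with hairpins (adjusted p = 0.671). Rtp4, a receptor chaperone gene, was at 2.55, 2.87 and 1.90 CPM in controls versus 1.18, 1.99 and 3.13 CPM with hairpins (adjusted p = 0.840). Ifi44 had 0 to 2 reads and the nuclear body gene Sp100 0 to 4 reads in any library, too few for a comparison.

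**Figure D4:**
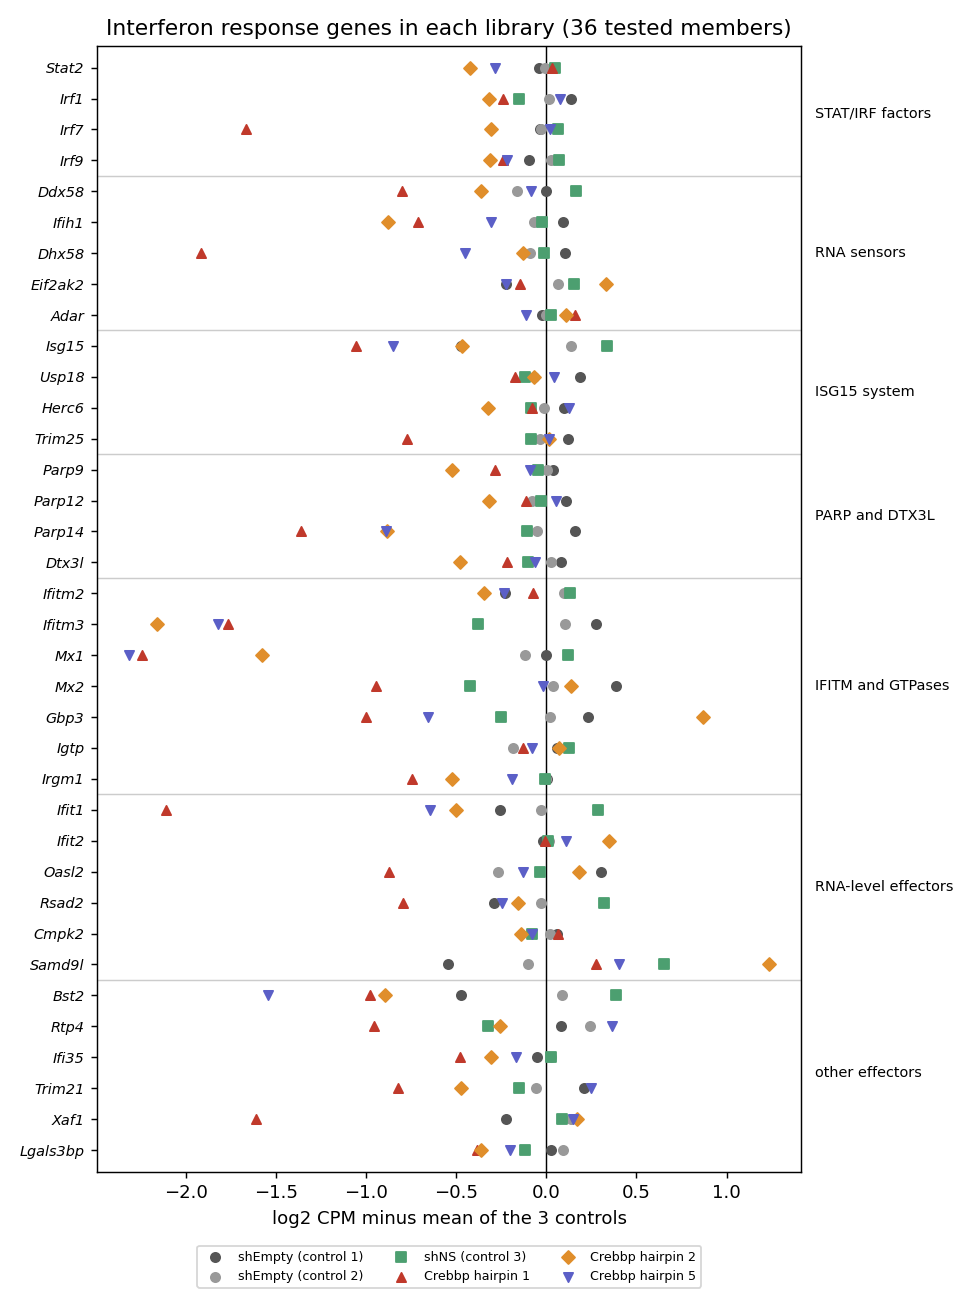
Log2 CPM of each tested member in each library, as the difference from the mean of the 3 controls (horizontal axis), with members in rows ordered by role. Hairpin libraries of Ifitm3, Mx1, Parp14 and Bst2 sit to the left of all controls, and hairpin 1 alone lies far left for Irf7, Dhx58, Xaf1 and Ifit1.

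The hairpin libraries differed in how far they lay from the controls. Each hairpin is 1 library with no replicate, so its log2 ratio to the control mean is given without a test, and the 3 ratios share their controls. With hairpin 1, 19 of the 36 tested members (52.8%) were at least 1.5-fold below the control mean, against 9.92% of all tested genes, and 0 were as far above, against 6.8%. With hairpin 2 these were 5 members (13.9%) against 7.15%, and 2 above against 8.19%. With hairpin 5 they were 7 members (19.4%) against 5.49%, and 0 above against 3.38%. The median log2 ratio of the 36 members was -0.73, -0.31 and -0.12 with hairpins 1, 2 and 5, and that of all tested genes was 0.00 with each. Hairpin 1 is also the library with the low Vwf level.

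Between the non-silencing hairpin and the empty vector no member was called. In an edgeR fit with 3 groups, in which the spread of shNS, a single library, was taken from the other groups, 0 members passed in either direction. Of all tested genes 0% were called lower and 0% higher. As no gene at all was called, the lack of called members says nothing particular about them. The sign was negative for 19 and positive for 17 members (median -0.02 on the log2 scale, range -0.76 to 1.05). The median log2 fold change of shCrebbp was -0.22 against shNS and -0.29 against shEmpty. For the called genes the values against shNS and shEmpty were -1.56 and -2.14 (Ifitm3), -2.53 and -2.34 (Mx1), and -0.93 and -1.10 (Parp14). The calls came from the test of shCrebbp against all controls. Whether they hold against shNS alone cannot be decided, because shNS is a single library.

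Genes of the same pathway outside the list were compared in the same fit, and none of the 101 tested was called. With 0.978% of all tested genes called lower and 0.276% higher, a count of 0 among so few genes is near the background. The 6 receptor genes included Ifngr1 (18.9 ± 0.661 CPM in controls, 21.7 ± 1.26 CPM with hairpins, edgeR adjusted p = 0.412) and the lambda receptor gene Il28ra (6.19 ± 2.56 and 4.31 ± 0.386 CPM, adjusted p = 0.461), and 2 of the 6 had negative fold changes. The relay list of 10 kinases, STATs and cofactors includes Crebbp, the target of the hairpins. In this list Jak1, the kinase shared by these receptors, was at 56.0, 53.8 and 47.7 CPM in controls. It was at 99.3, 110 and 70.5 CPM with hairpins 1, 2 and 5, above every control and just short of the threshold (log2 fold change 0.83 ± 0.16, adjusted p = 0.0552). Jak1 was called higher with DESeq2, with limma-voom using library quality weights, with no filter on low counts and in edgeR without hairpin 5. Ep300, the gene of the paralogue p300, was at 115 ± 5.24 and 117 ± 11.1 CPM (adjusted p = 0.936).

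Of 17 negative regulators 9 had negative fold changes, and the 2 with the smallest p were Irf2, a repressor at ISREs (70.8, 70.1 and 69.1 CPM in controls, 44.9, 53.1 and 64.0 CPM with hairpins, edgeR adjusted p = 0.197), and Cish, a suppressor of cytokine signalling (9.74 ± 1.43 and 7.04 ± 0.592 CPM, adjusted p = 0.231). Of 18 tested genes of nucleic acid sensing and its relay 12 had negative fold changes. Tmem173, which encodes the adaptor STING, was at 14.6, 15.4 and 15.9 CPM in controls versus 5, 11.5 and 11.9 CPM with hairpins 1, 2 and 5, lowest with hairpin 1 (adjusted p = 0.288). Prkra, which encodes the PKR activator PACT, was at 23.0 ± 1.75 and 28.0 ± 3.03 CPM (adjusted p = 0.297).

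The 51 further interferon-stimulated genes that could be tested included 36 with a negative and 15 with a positive fold change (median -0.19 on the log2 scale). Of all 13390 tested genes, 6263 had a negative and 7127 a positive one. The groups were apart with hairpins lower in 14 of the 51 and with hairpins higher in 4, against 1473 and 1530 of all 13390 tested genes. Isg20, an RNA exonuclease gene, was at 19.3, 22.1 and 25.9 CPM in controls versus 12.4, 13.4 and 14.1 CPM with hairpins 1, 2 and 5, without overlap and just short of the threshold (log2 fold change -0.75 ± 0.14, edgeR adjusted p = 0.0520). Cd274, which encodes the immune checkpoint ligand PD-L1, was at 12.3, 11.6 and 11.8 CPM in controls versus 5.88, 9.12 and 6.33 CPM with hairpins (-0.74 ± 0.19, adjusted p = 0.110). Both passed in DESeq2 over all 6 libraries and with limma-voom using quality weights.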

How the data were processed

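Each deposited file lists, for 1 library, whole-number read counts by gene symbol. Per the submitters' processing notes, the authors used bcl2fastq 1.8.2, TopHat2 2.0.12 and HTSeq 0.6.1 on build mm9. No annotation or strand setting was found in the labels, so a gene and its antisense partner cannot be told apart. HTSeq's summary rows, 24.8% to 28.9% of counts, were dropped. The main test was edgeR's robust quasi-likelihood test (edgeR 4.0.16, R 4.3.3) after TMM scaling and filterByExpr, with Benjamini-Hochberg adjustment over all 13390 tested genes and a threshold of 0.05. It was also run on counts simulated with the spread fitted to these data, and no result here rests on that run. CPM use the TMM library sizes, log2 CPM a prior count of 2, and each SE was derived from a fold change and its F statistic. Alternatives were DESeq2 1.42.0, limma-voom (limma 3.58.1), other scalings and filters, and leaving out each library. The members and lists were chosen with earlier results of these data known. Named are all 42 listed genes, Crebbp, Ep300, the 2 genes of smallest p per pathway list and the 2 most abundant per marker list, apart from items not reported here. Intervals and read floors cover counting error only. Transcript lengths and shared 50-base words are from GENCODE M21, and promoters and gene neighbours from RefSeq GRCm38.p6.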

Additional observations from a re-analysis of the deposited data

How the results depend on the processing

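The count of members called lower, 3 in edgeR, was 5 with DESeq2, 4 with limma-voom using library quality weights and 0 to 3 with 1 library left out. Ifitm3 missed the threshold without control replicate 1 (edgeR adjusted p = 0.0691) or 2 (0.0959). Mx1 missed it without control replicate 1, 2 or 3 (0.168, 0.189 and 0.112), and Parp14 likewise (0.179, 0.187 and 0.0933). Among pathway genes outside the list, 0 called became 5 with DESeq2, 5 with limma-voom using library quality weights, 2 with no filter, and 0 to 1 with 1 library left out. Crebbp, the target of the hairpins, is counted in both groups of 5 and is the gene called without hairpin 2. Over all tested genes, 131 lower and 37 higher became 430 and 303 with DESeq2, and 409 and 273 with quality weights. Of 466 member fold changes recomputed under alternatives, 431 kept direction and side of the threshold, 10 lost the call, 4 gained one and 21 changed sign, none of the last in a called gene. The log2 fold change of Eif2ak2 (0.00) was -0.00507 with DESeq2, -0.00139 with limma-voom, -0.13 with quality weights, -0.0022 with RLE scaling and -0.0091 with no filter. Quality weights also gave Adar -0.0176, Herc6 0.0032, Igtp 0.0403 and Usp18 0.0147. With 1 library left out, sign changed within -0.194 to 0.0945 for Eif2ak2, -1.05 to 0.298 for Gbp3, -0.211 to 0.0196 for Herc6, -0.148 to 0.0120 for Igtp and -0.543 to 0.0035 for Oasl2. It also did within -0.633 to 0.0647 for Rtp4, -0.339 to 0.0092 for Trim25, -0.139 to 0.0278 for Usp18 and -0.487 to 0.155 for Xaf1. The cause of these changes was not tested. The difference in mean log2 CPM over the members was -0.51 to -0.29 with 1 library left out and -0.49 with a prior count of 0.5. No paired analysis was possible because the hairpin numbers name constructs and the control numbers only tell libraries apart, so no label ties a control to a hairpin library. Depth limits what can be said of the 5 untested members.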

Other observations

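A few interferon-stimulated genes outside the list were picked after their values were seen, and are given as values only. Gbp7, a guanylate-binding protein gene, stood above all controls with every hairpin, at 4.04, 3.66 and 3.21 CPM in the controls versus 4.19, 9.62 and 7.35 CPM under hairpins 1, 2 and 5 (edgeR adjusted p = 0.180). Zbp1, a sensor of Z-form nucleic acid, stood below them, at 13.7, 12.2 and 11.9 CPM versus 3.53, 9.76 and 9.05 CPM, and was lowest with hairpin 1 (adjusted p = 0.299).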
